A study of Mus musculus with 24 samples.

Results

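The comparison described here sets Th-Cre mice against wild-type (WT) mice when both had received deschloroclozapine (DCZ), a ligand of muscarinic designer receptors. It rests on 12 of the 24 RNA-seq libraries of interscapular brown adipose tissue in the series, 6 of each genotype, chosen by their labelled genotype and treatment and not by any measured value. The WT mice are labelled C57Bl/6J and the Th-Cre mice B6.129X1- Tht1(cre)Te/Kieg, a line in which Cre recombinase is expressed from the tyrosine hydroxylase locus and therefore in catecholamine-producing cells. Both groups were 6 to 8 months old, held 3 males and 3 females each, and were sampled 30 minutes after DCZ. Which designer receptor was used, how it reached the animals and which cells carried it is not given in the sources used here. The remaining 12 mice, 6 WT and 6 Th-Cre, received saline and supply the same genotype comparison without the ligand. The comparison asks how the tissue of the 2 genotypes differed when the ligand itself was held constant. Library numbers 1 to 12 were all WT and 13 to 24 all Th-Cre, so genotype, mouse line and library series cannot be told apart in any result below.

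Brown adipose tissue burns lipid for heat. Sympathetic nerves release noradrenaline in it, which acts on beta-adrenergic receptors of brown adipocytes, raises cyclic AMP (cAMP) through the stimulatory G protein and adenylyl cyclase, and activates protein kinase A. The kinase drives lipolysis, which feeds and opens the uncoupling protein UCP1 in the mitochondrial inner membrane, and phosphorylates the transcription factor CREB, which binds the cAMP response element in gene promoters. Immediate early genes are transcribed within minutes of such signals and need no new protein to do so.

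Total estimated counts ran from 16.6 to 20.2 M in WT DCZ and from 12.7 to 22.9 M in Th-Cre DCZ libraries. The mitochondrial genome supplied 37.2% ± 2.72 (SD, n = 6) of the counts in WT DCZ and 34.9% ± 2.53 in Th-Cre DCZ libraries (exact two-sided permutation test, p = 0.154, adjusted over 3 library measures 0.461). Reads that pseudoaligned were 86.7% ± 0.978 and 86.4% ± 1.23 (p = 0.688, adjusted 0.688), and the totals differed with p = 0.515 by the same exact test (adjusted 0.688). Ddx3y, which lies on the Y chromosome, matched the labelled sex in all 24 libraries. Th itself, the tyrosine hydroxylase gene (chromosome 7, 142892752 to 142931128, GRCm38), gave 1 read in total over the 24 libraries, so the Cre-carrying locus could not be checked from its transcript. Ucp1, the defining transcript of brown adipocytes, was at 1752 CPM (counts scaled to a common library size) or more in each of the 12 libraries. Skeletal muscle transcripts were present in 2 of the 6 Th-Cre DCZ libraries and in none of the WT DCZ libraries: the mean log2 level of 14 muscle markers was 5.22 in mouse DN2075 and 2.19 in DN2091, against 0.543 or less in the other 10. With the saline groups, 6 libraries lay above 1 on this scale: DN2075, DN2091 and, under saline, WT12, DN2086, DN2087 and DN2094. The effect of leaving these out is given below where it ended a call or changed a count of called list members by more than 1.5 times. That fit holds fewer mice, and whether a call ended there through muscle transcripts or through fewer mice was not tested. Labels name separate mice for all libraries.

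Among the transcripts that were higher in Th-Cre than in WT mice after DCZ were classical cAMP-inducible genes, and the promoters of 4 genes described below held the full palindromic cAMP response element, TGACGTCA, read on either strand. They are shown because 3 of them, Btg2, Dusp1 and Ppp1r15a, are the called immediate early genes with the element, and the fourth, Arl4d, is the 1 gene called by edgeR in the direct test of a change of the genotype difference with the ligand. Each sequence is the 250 bases before the annotated start from RefSeq on GRCm38.p6, read 5′ to 3′ on the gene's strand, with the element in capitals.
Arl4d (chr11:101665291-101665540, plus strand): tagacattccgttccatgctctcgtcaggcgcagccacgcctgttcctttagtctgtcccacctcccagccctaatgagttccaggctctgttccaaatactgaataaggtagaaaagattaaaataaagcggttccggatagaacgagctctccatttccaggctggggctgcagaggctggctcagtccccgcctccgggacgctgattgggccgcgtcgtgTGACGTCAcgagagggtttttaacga
Btg2 (chr1:134079156-134079405, minus strand): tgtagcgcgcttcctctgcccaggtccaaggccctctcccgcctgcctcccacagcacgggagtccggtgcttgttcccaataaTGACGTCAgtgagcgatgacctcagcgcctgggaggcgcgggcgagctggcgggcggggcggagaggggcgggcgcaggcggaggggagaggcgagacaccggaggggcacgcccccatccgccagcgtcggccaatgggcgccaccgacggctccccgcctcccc
Dusp1 (chr17:26508473-26508722, minus strand): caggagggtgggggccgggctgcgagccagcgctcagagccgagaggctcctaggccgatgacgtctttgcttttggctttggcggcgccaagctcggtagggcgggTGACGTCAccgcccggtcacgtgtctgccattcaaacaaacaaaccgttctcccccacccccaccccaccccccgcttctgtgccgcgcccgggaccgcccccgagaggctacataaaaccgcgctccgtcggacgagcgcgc
Ppp1r15a (chr7:45526269-45526518, minus strand): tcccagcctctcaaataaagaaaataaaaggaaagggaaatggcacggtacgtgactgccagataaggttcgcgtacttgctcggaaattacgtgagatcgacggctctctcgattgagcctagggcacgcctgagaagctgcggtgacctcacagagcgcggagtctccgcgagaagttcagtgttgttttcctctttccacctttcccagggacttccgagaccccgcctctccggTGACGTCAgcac

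The element began 26 bases before the start in Arl4d, 166 in Btg2, 143 in Dusp1 and 12 in Ppp1r15a. It was found in 1.55% of the 32851 promoters of the table, and in 294 of the 10038 tested genes with an entry (2.93%). Of the 17 called immediate early genes, 14 had an entry and 3 held it. The shorter core of the element, TGACG or CGTCA, which every full element contains, was found in 17.8% of promoters, in 29.8% of tested genes with an entry and in 9 of those 14: Atf3, Btg2, Dusp1, Egr2, Fos, Junb, Nr4a1, Nr4a3 and Ppp1r15a. Other motifs were scanned too. A TATA motif was found in 4.84% of tested genes with an entry and in 2 of those 14, Fos and Gadd45b. A heat shock element was found in 6.25% and in 2 of 14, Fosl2 and Jun. A match of letters is a description of this window and not a measured binding site.

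After DCZ, 1808 of 13129 tested genes (13.8%) differed between the genotypes at an adjusted p under 0.05 by edgeR's quasi-likelihood test with Benjamini-Hochberg adjustment. Of these 886 were higher (6.75% of tested genes) and 922 lower (7.02%) in Th-Cre mice, and the median over all tested genes was 0.00 on the log2 scale. With upper-quartile scaling the split was 722 higher and 1216 lower (37.3% higher in place of 49.0%). Most differences were small: the median size among called genes was 0.40 on the log2 scale, and 158 genes (1.2%) differed at least 2-fold, 96 upward and 62 downward (105 in all without WT5). In 457 genes (3.48%) the 6 Th-Cre DCZ libraries did not overlap the 6 WT DCZ libraries. The count of called genes was sensitive to single mice, at 850 without WT5, 1026 without DN2072, 1111 without DN2097, 1133 without DN2075 and 1174 without WT10, and it was 535 (316 higher, 219 lower) without the 6 libraries that held muscle transcripts.

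The same genotype comparison under saline called 3270 genes (24.9%), 12.5% higher and 12.4% lower. No library is shared by the 2 contrasts, but both take the same estimate of spread and the same split of library numbers. Of the genes called after DCZ, 1075 were also called under saline in the same direction, which is 59.5% of the DCZ calls and 32.9% of the saline calls. The sign was the same under saline for 95.9% of the genes called after DCZ and for 75.6% of all tested genes, and across all tested genes, which are not independent replicates, the 2 sets of log2 fold changes had a Spearman rho of 0.63. Without the muscle-containing libraries, a fit with fewer mice, the shared calls fell to 38, with 109 calls left under saline. They numbered 498 without WT5, 610 without DN2072, 662 without WT10, 681 without DN2075 and 682 without DN2097. Arl4d and Gadd45b, the 2 genes called in opposite directions, were both higher in Th-Cre mice after DCZ (0.98 and 0.95) and lower under saline (-0.55 and -1.09). A direct test of whether the genotype difference changed with the ligand called 1 gene, Arl4d, of 13129 (0.00762%), and 980 genes (7.46%) had an unadjusted p under 0.05, while DESeq2 called 16. Leaving out 1 library gave 7 genes (without WT2), 6 (without DN2091), 4 (without DN2087), 3 (without WT7) or 2 (without WT3 or DN2205), and 1 in all other such fits.

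**Figure D1:**
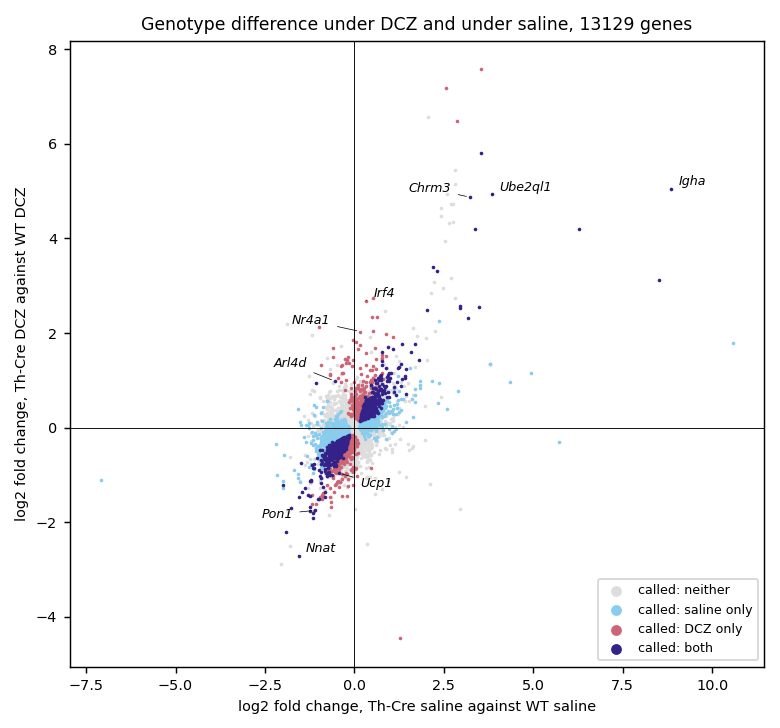
Log2 fold change of Th-Cre against WT mice under saline (horizontal axis) and after DCZ (vertical axis) for the 13129 tested genes, coloured by the contrast in which the adjusted p was under 0.05. Ube2ql1, Chrm3, Igha and Nnat lie far from 0 on both axes, whereas Irf4, Nr4a1 and Arl4d lie high on the DCZ axis and near or below 0 under saline.

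Several of the transcripts with the largest genotype differences differed with either injection. Ube2ql1, a ubiquitin-conjugating enzyme-like gene on chromosome 13 (69702832 to 69739889, GRCm38), had the smallest p of all genes. It was at 0.333 to 2 CPM (median 0.57) in WT and 8.84 to 52.9 CPM (median 18) in Th-Cre libraries (log2 fold change 4.93 ± 0.50 SE, adjusted p = 7.13e-06). All 6 Th-Cre values lay above all 6 WT values, with mice DN2072, DN2075 and DN2097 highest at 52.9, 39.6 and 24.3. Med10, a subunit of the Mediator complex that links activators to RNA polymerase, starts 62505 bases beyond its end and was examined for that position. Med10 was at 13.2 to 18.7 CPM (median 16) in WT and 27.8 to 97.6 CPM (median 34.4) in Th-Cre libraries without overlap (log2 fold change 1.67 ± 0.24 SE, adjusted p = 0.000277), and the same 3 mice were highest. Of 6 tested genes within 1 Mb, 2 were called, Med10 and Ube2ql1 itself, beside 13.8% of all genes.

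Chrm3, the M3 muscarinic acetylcholine receptor, was nearly silent in WT tissue, with 7 reads over the 6 WT DCZ and 11 over the 6 WT saline libraries. The Th-Cre libraries held 199 reads after DCZ, from 6 in DN2091 to 66 in DN2097, and 102 under saline. Its rate after DCZ was 30.2 times that in WT (95% exact interval 14.4 to 76.2, for counting error only), with adjusted p = 5.87e-05, and no Th-Cre library overlapped a WT library. Whether these reads came from the mouse gene was not tested, since the counts carry no sequence. Syne3, a nuclear envelope protein of the nesprin family, was also separate in all libraries, at 2.17 to 4.16 CPM (median 3.26) in WT and 8.57 to 14 CPM (median 9.77) in Th-Cre libraries (log2 fold change 1.71 ± 0.19 SE, adjusted p = 2.26e-05). Ube2ql1, Med10, Chrm3 and Syne3 were all called under saline too.

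Transcripts of antibody-secreting plasma cells formed another part of the difference. Igha, the immunoglobulin A heavy chain constant region, was at 0 to 3.33 CPM (median 0.197) in WT and 6.59 to 51.2 CPM (median 27.6) in Th-Cre libraries (log2 fold change 5.05 ± 0.71 SE, adjusted p = 0.000183). Jchain, which joins immunoglobulin A into dimers, was at 0.411 to 2.44 CPM (median 0.961) and 2.08 to 13.9 CPM (median 6.53) (log2 fold change 2.57 ± 0.60 SE, adjusted p = 0.00851), and the kappa light chain constant region Igkc at 1.47 to 9.83 CPM (median 2.68) and 4.8 to 49 CPM (median 22.1) (log2 fold change 2.53 ± 0.64 SE, adjusted p = 0.013). Igha did not overlap between the groups, whereas WT3 reached into the Th-Cre range for Jchain and Igkc. Markers of earlier B cells went the other way, with Cd79a at -1.68 and Cd79b at -1.43, and each lost its call without 1 or more single libraries (Cd79a without WT3, adjusted p = 0.0541; Cd79b in 8 of 24 such fits). Of 12 tested B, plasma and T cell markers 2 were higher and 3 lower (median -0.07), beside 6.75% and 7.02% of all genes. When muscle-containing libraries were left out, 2 were called higher and 0 lower of 14 tested, with a median of 0.32, so the calls on Cd79a and Cd79b ended, and that on Cd79b did not pass with GC and length offsets either. The summed level of the 15 listed markers ran from 12.6 to 45.1 CPM in WT and from 13.7 to 81.4 in Th-Cre libraries. In whole tissue, fewer cells of a type and less RNA per cell cannot be told apart, here and below. Constant region genes resemble each other, so the division of reads among them is uncertain.

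Lower in Th-Cre mice were Nnat and Dlk1, both imprinted genes expressed in preadipocytes. Nnat, neuronatin, was at 6.08 to 18.3 CPM (median 9.47) in WT and 0.612 to 4.55 CPM (median 1.57) in Th-Cre libraries (log2 fold change -2.71 ± 0.54 SE, adjusted p = 0.00339). Dlk1, a Notch-like inhibitor of adipocyte differentiation, was at 1.68 to 5.54 CPM (median 3.33) and 0.447 to 1.29 CPM (median 0.755) (log2 fold change -2.22 ± 0.36 SE, adjusted p = 0.000899). Neither gene overlapped between groups, and both were also lower under saline (-1.56 and -1.92). Nnat lies within Blcap, which is on the other strand. Pon1, the serum paraoxonase, was at 25.7 to 53.8 CPM (median 48.8) and 5.75 to 25.1 CPM (median 9.58) (log2 fold change -1.75 ± 0.35 SE, adjusted p = 0.00368), and Ffar4, the receptor for long-chain fatty acids also called GPR120, at 47.4 to 97.1 CPM (median 75.3) and 12.9 to 44.7 CPM (median 22.3) (log2 fold change -1.47 ± 0.24 SE, adjusted p = 0.00101). These 2 were separate in all 12 libraries as well.

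Further down the same ranking stood Ifi27l2a, an interferon-inducible gene with a close copy beside it (-1.81), the transmembrane protein gene Tmem82 (-1.51), the retinol dehydrogenase Dhrs9 (-1.37), the matrix glycoprotein tenascin C, Tnc (-1.35), and the peptide hormone neuromedin B, Nmb (-1.27). In each of these 5 genes the groups overlapped, with 3 or 4 of the 6 Th-Cre libraries below every WT library. Calls on Ifi27l2a and Nmb did not pass without the muscle-containing libraries. The kinase Sgk2 (-1.62) and the irisin precursor Fndc5 (-1.44) completed the 10 lowest but lost their calls in 7 of 24 and 11 of 24 fits that left out 1 library, with adjusted p up to 0.115 and 0.1. Both were also uncalled without the muscle-containing libraries, and Fndc5 with GC and length offsets. On the high side, Cyp26b1, which degrades retinoic acid, was at 0.222 to 2.85 CPM (median 1.39) in WT and 1.74 to 9.34 CPM (median 5.35) in Th-Cre libraries (log2 fold change 2.04 ± 0.45 SE, adjusted p = 0.0065). Hspa1b, an inducible heat shock protein 70 gene with a near-identical copy in Hspa1a, was at 2.13 and lost its call in 19 of 24 such fits (adjusted p up to 0.189), without the muscle-containing libraries, and with upper-quartile scaling, voom or GC and length offsets.

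**Figure D2:**
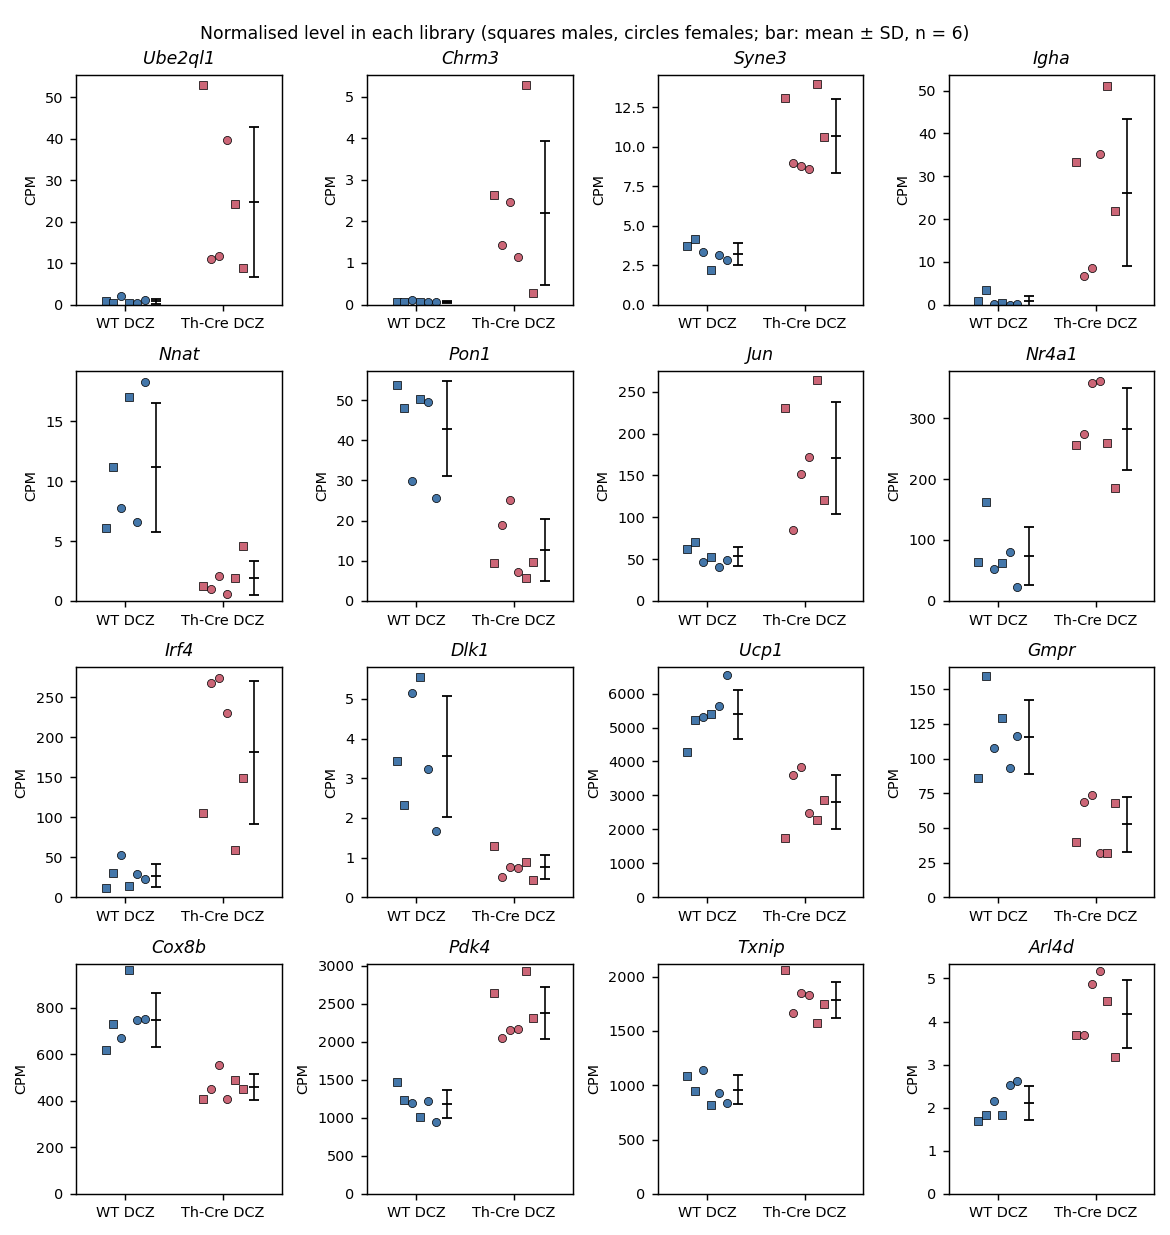
Normalised level in CPM of 16 named genes in each WT DCZ (blue) and Th-Cre DCZ (red) library, squares for males and circles for females, with the mean and SD of 6 beside them on axes that start at 0. All genes shown are from the 457 (3.48% of tested genes) in which the 2 groups do not overlap. Ube2ql1, Chrm3 and Igha are close to 0 in WT mice, and Ucp1, Gmpr, Cox8b, Nnat, Dlk1 and Pon1 are lower in every Th-Cre mouse.

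Of the 35 lists, immediate early genes had the largest share of higher members. Of 30 tested, 17 were higher in Th-Cre than in WT mice after DCZ and none was lower, against 6.75% and 7.02% of all genes. Their median was 0.96 on the log2 scale beside 0.00 for all genes. The 17 were Nr4a1, Fos, Atf3, Jun, Egr2, Btg2, Nr4a3, Egr1, Junb, Arc, Zfp36, Dusp1, Ppp1r15a, Gadd45b, Fosl2, Ier2 and Dusp6. Under saline the same list had 0 higher and 4 lower members of 30, against 12.5% and 12.4% of all genes, and a median of -0.28. In the direct test of that change with the ligand, 26 of the 30 had an unadjusted p under 0.05 (7.46% of all genes did) and none had an adjusted p under 0.05, the lowest being 0.0571 for Dusp1.

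Nr4a1, an orphan nuclear receptor induced by cAMP, was at 23.5 to 162 CPM (median 63.2) in WT and 185 to 360.4 CPM (median 267) in Th-Cre libraries (log2 fold change 2.03 ± 0.35 SE, adjusted p = 0.00126). Jun, which forms the AP-1 factor with Fos proteins, was at 40.3 to 71 CPM (median 50.6) and 84.5 to 264 CPM (median 162) (log2 fold change 1.66 ± 0.22 SE, adjusted p = 0.000153). In both genes every Th-Cre library lay above every WT library. They were the 2 of 30 list members with separate groups, beside 3.48% of all genes. Fos, a marker of recent cell activation, was at 9.52 to 85.1 CPM (median 21.9) and 33.7 to 189.5 CPM (median 97.1) (log2 fold change 1.85 ± 0.45 SE, adjusted p = 0.0105). The highest WT value of Fos was that of WT3, and 3 of the 6 Th-Cre libraries lay above it. Dusp1, the MAP kinase phosphatase, was at 53.3 to 96.8 CPM (median 77.8) and 84.8 to 237 CPM (median 174) (log2 fold change 1.15 ± 0.18 SE, adjusted p = 0.000843), with 5 of 6 Th-Cre libraries above WT.

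Ppp1r15a, which reverses the stress-induced block of translation, was at 12.4 to 21.5 CPM (median 14.5) and 20 to 38.2 CPM (median 32) (log2 fold change 0.96 ± 0.18 SE, adjusted p = 0.00268), again with 5 of 6 above. Btg2, an antiproliferative gene named here for its promoter, was at 34.7 to 112 CPM (median 51.8) and 82.2 to 207 CPM (median 183) (log2 fold change 1.5 ± 0.30 SE, adjusted p = 0.00337), with 4 of 6 above. The members Atf3 (1.68), Nr4a3 (1.45), Junb (1.36) and Fosl2 (0.84), all transcription factors and chosen after their values were seen, showed 3 to 5 Th-Cre libraries above the WT range.

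The mean log2 level of the 30 genes showed how the mice were spread. Among males it was 4.27, 4.36 and 4.97 in WT1, WT5 and WT3 and 4.74, 5.21 and 5.33 in DN2091, DN2097 and DN2072. Among females it was 3.61, 3.77 and 3.83 in WT4, WT10 and WT6 and 4.46, 5.19 and 5.35 in DN2205, DN2075 and DN2207. The genotypes were thus separate among females and overlapped among males, where WT3 exceeded DN2091. In fits of 1 sex, 9 members were called in females, where 30 genes were called in all. In males 1 member was called, where 735 genes were called in all. A difference between the sexes was not tested. Without the muscle-containing libraries 11 members were called, with a median of 1; the calls on Nr4a3 and Fosl2 were among those lost. The 6 WT saline mice spanned 3.66 to 5.48 and the 6 Th-Cre saline mice 3.82 to 4.89.

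**Figure D3:**
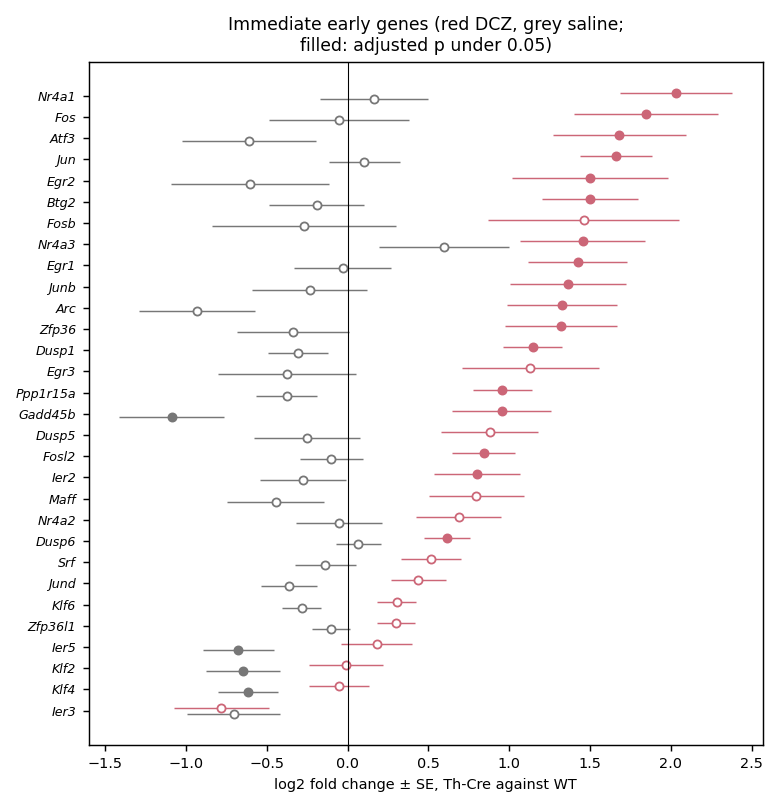
Log2 fold change with its standard error for the 30 tested immediate early genes, Th-Cre against WT, after DCZ (red) and under saline (grey), with filled points where the adjusted p was under 0.05. The red points of 17 genes are filled and positive, and the grey points lie mostly below 0, with 4 filled.

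Arl4d, a small ARF-like GTP-binding protein at low abundance in this tissue, was the gene called in the direct test of a change with the ligand. After DCZ it was at 1.69 to 2.62 CPM (median 2) in WT and 3.17 to 5.17 CPM (median 4.09) in Th-Cre libraries, without overlap (log2 fold change 0.98 ± 0.15 SE, adjusted p = 0.000438). Under saline the order was the opposite, with 3.16 to 5.88 CPM (median 3.86) in WT and 2.2 to 3.83 CPM (median 2.47) in Th-Cre libraries (log2 fold change -0.55 ± 0.15 SE, adjusted p = 0.0101). The difference between the 2 contrasts was 1.53 ± 0.21 SE on the log2 scale (adjusted p = 0.00185). It was called in 35 of 37 alternative fits, with values of 1.40 to 1.72, and not in males (adjusted p = 0.328) or females (0.993) alone.

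The transcription factor Irf4 and a receptor of the adrenergic pathway were also higher in Th-Cre mice. Irf4, known for its part in thermogenic gene expression in brown fat and in lymphocytes, was at 12.2 to 52.8 CPM (median 26.2) in WT and 59.6 to 274 CPM (median 190.0) in Th-Cre libraries (log2 fold change 2.69 ± 0.38 SE, adjusted p = 0.000183), with no overlap. It was at 0.34 under saline (adjusted p = 0.518). Adrb3, the main beta receptor of rodent adipocytes and named for that role, was at 106 to 222 CPM (median 134) in WT and 183 to 353 CPM (median 226) in Th-Cre libraries, and 3 Th-Cre libraries exceeded the WT range (log2 fold change 0.82 ± 0.22 SE, adjusted p = 0.0194). Its call was lost in 2 of 24 fits that left out 1 library (adjusted p up to 0.0574) and without the muscle-containing libraries.

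Downstream of the receptors, Adcy9, an adenylyl cyclase, was at 9.49 to 22.6 CPM (median 13.8) in WT and 26.7 to 32 CPM (median 29.5) in Th-Cre libraries without overlap (log2 fold change 0.98 ± 0.19 SE, adjusted p = 0.00295), and nearly as different under saline (0.92). Rgs2, which shortens G protein signals, was at 90.4 to 244 CPM (median 143) and 240.2 to 421 CPM (median 306) (log2 fold change 1.09 ± 0.23 SE, adjusted p = 0.00502). Gnas, the stimulatory G protein alpha subunit and an imprinted locus with several transcripts, was lower, at 2958 to 3628 CPM (median 3187) and 1512 to 3171 CPM (median 1817) (log2 fold change -0.65 ± 0.14 SE, adjusted p = 0.00532), a call that did not pass without the muscle-containing libraries. Over the whole list of adrenergic receptors and cAMP signalling, 10 of 29 tested members were higher and 2 lower (median 0.17). These shares were 34.5% and 6.9%, beside 6.75% and 7.02% of all genes. Under saline 11 were higher and 1 lower (median 0.22), beside 12.5% and 12.4%. With the muscle-containing libraries left out, 8 were called higher and 0 lower of 30 after DCZ.

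Under saline, acute cAMP and CREB targets gave 3 higher and 2 lower of 22 (median 0.14), beside 12.5% and 12.4% of all genes. After DCZ they gave 10 higher and 0 lower (median 0.45), beside 6.75% and 7.02%. Among them Irs2, the insulin receptor substrate, was at 33.3 to 68.8 CPM (median 42.3) and 63.6 to 194 CPM (median 146) (log2 fold change 1.59 ± 0.29 SE, adjusted p = 0.0022), with 5 Th-Cre libraries above the WT range, whose top was WT3. Angptl4, an inhibitor of lipoprotein lipase, was at 124 to 201 CPM (median 173) and 194 to 314 CPM (median 269) (log2 fold change 0.64 ± 0.13 SE, adjusted p = 0.0044). Dusp1, Fos, Nr4a1 and Nr4a3 are counted in this list and in the immediate early list.

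Ucp1, the uncoupling protein, was lower in Th-Cre mice. It was at 4292 to 6533 CPM (median 5358) in WT and 1752 to 3828 CPM (median 2683) in Th-Cre libraries, and the highest Th-Cre mouse stayed below the lowest WT mouse (log2 fold change -0.96 ± 0.13 SE, adjusted p = 0.000142). Under saline it was also lower, at -0.44 (adjusted p = 0.0136). Gmpr, a guanosine monophosphate reductase, was at 85.8 to 159 CPM (median 112) and 32.1 to 73.9 CPM (median 54.1) without overlap (log2 fold change -1.15 ± 0.24 SE, adjusted p = 0.00498). Cox8b and Cox7a1, the cytochrome c oxidase subunits of heart, muscle and brown fat, were at -0.7 and -0.58 (adjusted p = 0.00235 and 0.00331), and Cox8b did not overlap. Both lie on short transcripts, a property taken up with the respiratory chain below.

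Thermogenic and brown adipocyte identity genes as a list were called in both directions: 2 of 30 tested were higher and 5 lower, with a median of -0.03. These shares were 6.67% and 16.7%, beside 6.75% and 7.02% of all genes. The fifth lower member, the calcium-binding neurotrophic factor S100b (-0.52), lost its call in 13 of 24 fits that left out 1 library, without the muscle-containing libraries and with GC and length offsets. Higher were Ppara, the nuclear receptor of fatty acid oxidation (0.88, adjusted p = 0.00625), and the fatty acid elongase Elovl6. Ppargc1a, the coactivator of mitochondrial biogenesis, was at -0.45 (adjusted p = 0.101) and the lipid droplet protein Cidea at -0.12 (0.209), neither past the threshold, and both were picked for their role. Ckb, the creatine kinase of the futile creatine cycle, was at 34.8 to 64.9 CPM (median 45.1) and 16 to 56.1 CPM (median 23.3) (log2 fold change -0.84 ± 0.22 SE, adjusted p = 0.0171), the only called gene of 8 tested in the list of alternative heat-producing cycles. Its call did not pass without the muscle-containing libraries. In that list 7 of 8 members had a positive log2 fold change (median 0.13). The 1 called lower was 12.5% of the list, beside 7.02% of all genes.

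Pdk4 and Txnip, from the list of glucose uptake and glycolysis, were among the genes with the smallest p-values. Pdk4, which shuts pyruvate out of the mitochondrial oxidation of glucose, was at 949 to 1466 CPM (median 1207) in WT and 2046 to 2930.5 CPM (median 2240.3) in Th-Cre libraries (log2 fold change 1.01 ± 0.12 SE, adjusted p = 2.26e-05). Txnip, an inhibitor of glucose uptake, was at 819 to 1141 CPM (median 938) and 1573 to 2058 CPM (median 1790.0) (log2 fold change 0.9 ± 0.11 SE, adjusted p = 6.49e-05). Neither overlapped, and both were higher under saline too (0.59 and 0.46). The lactate dehydrogenase subunit Ldhb was lower (-0.29, adjusted p = 0.0139), a call that did not pass with GC and length offsets or without the muscle-containing libraries. These 3 were the called members among 26 of glucose uptake and glycolysis. The shares were 7.69% higher and 3.85% lower, beside 6.75% and 7.02% of all genes.

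Of the fatty acid and triglyceride synthesis genes 6 of 22 tested were higher and 1 lower, with a median of 0.24 after DCZ and 0.29 under saline. The shares after DCZ were 27.3% and 4.55%, beside 6.75% and 7.02% of all genes. Scd1, the stearoyl-CoA desaturase, was at 4056 to 26031 CPM (median 11341) and 12341 to 45388 CPM (median 30158) (log2 fold change 1.16 ± 0.27 SE, adjusted p = 0.00949), with overlapping groups. Elovl6 was at 348 to 717 CPM (median 472) and 625 to 1132 CPM (median 786) (log2 fold change 0.75 ± 0.19 SE, adjusted p = 0.0127), also overlapping. Fasn, the fatty acid synthase, was at 1.05 (adjusted p = 0.0284; call lost in 6 of 24 fits that left out 1 library), and malic enzyme, Me1, at 1.07 (lost without DN2097, adjusted p = 0.0627, and without WT5, 0.0643). The glycerol kinase Gk was the lower member (-0.88; lost without DN2072, 0.0527, and without DN2097, 0.0516). Without the muscle-containing libraries no member was called higher, while the median was 0.25.

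Of 23 cholesterol synthesis genes 6 were higher (26.1%) and 0 lower, beside 6.75% and 7.02% of all genes. The list median was 0.15 (0.27 under saline), but 2 members were called higher without the muscle-containing libraries (median 0.11). Fdft1, squalene synthase, was at 46.2 to 108 CPM (median 78.6) and 101 to 157 CPM (median 133) (log2 fold change 0.73 ± 0.18 SE, adjusted p = 0.0104). The regulator Insig1 (0.77) lost its call without WT5 (adjusted p = 0.058) and without the muscle-containing libraries. Lipolysis and lipid uptake gave 3 higher and 1 lower of 22, or 13.6% and 4.55%, beside the same shares of all genes. Among the higher members were the droplet coat gene Plin4 at 0.32 (adjusted p = 0.0128) and hormone-sensitive lipase, Lipe, at 0.32 (0.0306). The call on Lipe was lost in 5 of 24 fits that left out 1 library and without the muscle-containing libraries. The lower member of that list was not called in the latter fit. Adipose triglyceride lipase, Pnpla2, was at 0.15 and did not pass (0.153). Mitochondrial fatty acid oxidation gave 0 higher and 3 lower of 22, the latter 13.6%, beside 7.02% of all genes. The 3 were Decr1, a dienoyl-CoA reductase (-0.19), Eci1, an enoyl-CoA isomerase (-0.29), and Etfb, the beta subunit of the electron transfer flavoprotein (-0.34), and they lost their calls in 5 of 24, 1 of 24 and 4 of 24 fits that left out 1 library. Of this list 0 were called lower without the muscle-containing libraries and 1 with GC and length offsets.

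Subunits of the respiratory chain and of the ribosome were lower as groups. Of 76 nuclear oxidative phosphorylation subunits 45 were lower and none higher (median -0.26), and of 79 cytosolic ribosomal proteins 33 were lower and none higher (median -0.3). Of all genes 7.02% were lower and 6.75% higher. Under saline 60 and 75 members were lower, with medians of -0.36 and -0.43, beside 12.4% of all genes. Atp5k and Atp5o, both parts of the ATP synthase, were at 208 to 299 CPM (median 223) and 142 to 190.3 CPM (median 166) (log2 fold change -0.53 ± 0.10 SE, adjusted p = 0.00321) and at 467 to 646 CPM (median 495) and 345 to 434 CPM (median 391) (log2 fold change -0.4 ± 0.08 SE, adjusted p = 0.00413), without overlap. Among ribosomal genes, which have many near-identical pseudogenes, Rps2 was at -0.44 (adjusted p = 0.00591), Rps13 at -0.39 (0.00567) and Rpl11 at -0.38 (0.00725, call lost without the muscle-containing libraries). The 13 mitochondrially encoded mRNAs had none called in either direction (median -0.2).

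These transcripts are short, and short transcripts were lower in general. Of the 631 tested genes under 1000 bases 22.3% were lower and 1.11% higher, with a median of -0.21, whereas of the 1941 genes of 6000 bases or more 2.73% were lower and 11.7% higher, with a median of 0.07. Across 13118 genes the log2 fold change and transcript length had a Spearman rho of 0.24, and 0.24 under saline as well, values across genes that share the same 12 libraries. With offsets for GC content and length in each library, the lower members were 12 of the respiratory chain and 13 of the ribosome, with medians of -0.12 and -0.14. Immediate early genes were 21 higher and none lower with the same offsets (median 1.04). Without the muscle-containing libraries 5 and 3 members were called lower, at medians of -0.26 and -0.26, both near those of all mice. Leaving out single mice gave 10 (WT5), 15 (DN2075), 17 (DN2097), 18 (DN2072) and 19 (WT10) respiratory chain members. For the ribosome it gave 8 (WT5), 12 (DN2072), 13 (DN2075), 14 (DN2097), 20 (WT10) and 57 (WT1). The part of transcript length in these group differences was not tested beyond these values.

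**Figure D4:**
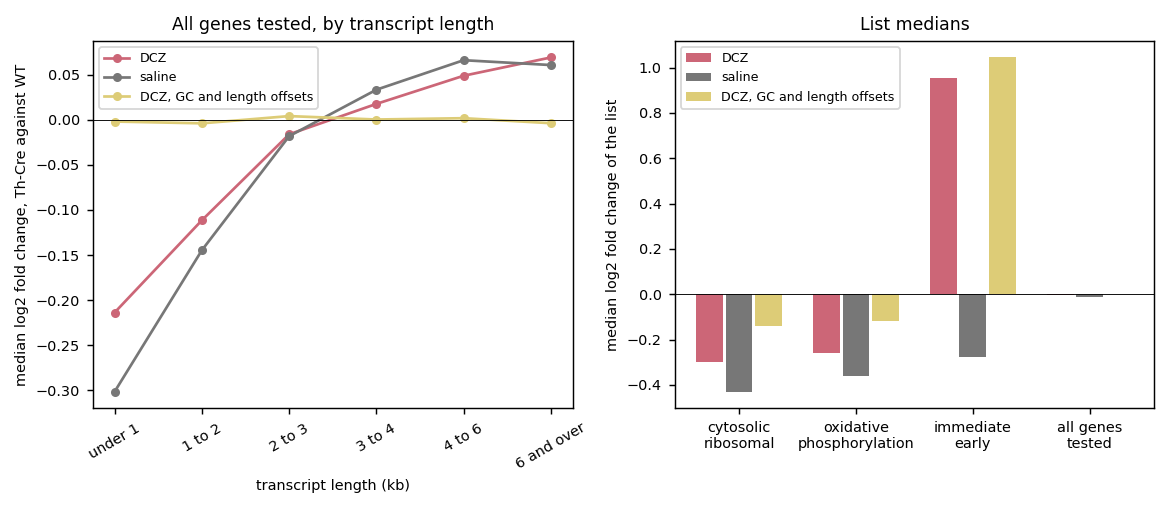
Left, median log2 fold change of Th-Cre against WT mice for all tested genes in 6 classes of transcript length, after DCZ, under saline, and after DCZ with GC and length offsets. Right, medians of 3 lists and of all genes in the same 3 fits; the ribosomal and respiratory medians are nearer to 0 with the offsets (-0.14 and -0.12), while the immediate early median is 1.04.

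The remaining lists held smaller numbers of called genes, to be read beside the 6.75% higher and 7.02% lower of all tested genes. Of 18 glucocorticoid responsive genes 4 were higher and none lower (median 0.33), and 3 of these, Pdk4, Dusp1 and Angptl4, are described above. In the circadian clock 3 of 18 were higher, among them Cry2 (31.4 to 38.9 CPM (median 36.5) in WT, 39 to 57.4 CPM (median 48.8) in Th-Cre libraries; log2 fold change 0.43 ± 0.09 SE, adjusted p = 0.00321) and Nr1d2 (0.3, adjusted p = 0.0139), both repressors within the clock and both without overlap. The endoplasmic reticulum co-chaperone Dnajb9 was at 34.9 to 60.7 CPM (median 47.7) and 62 to 77.5 CPM (median 72.2) without overlap (log2 fold change 0.55 ± 0.10 SE, adjusted p = 0.00197), and Herpud1, of the degradation of misfolded proteins there, at 0.51. Their list, the unfolded protein and integrated stress response, had 2 higher and 2 lower of 23, or 8.7% each, near the shares of all genes. It had 2 and 0 without the muscle-containing libraries (2 and 0 with GC and length offsets). Dnajb1, the cytosolic partner of heat shock protein 70, was at 12.8 to 14.8 CPM (median 14) and 16.8 to 26.1 CPM (median 22.1) without overlap (log2 fold change 0.65 ± 0.11 SE, adjusted p = 0.00101; saline -0.08).

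Of 15 inflammatory and NF-kB targets 2 were higher (median 0.51; saline -0.19), including the NF-kB subunit Relb (0.61, adjusted p = 0.0092), and 1 was called without the muscle-containing libraries. Interferon-inducible genes gave 1 higher and 10 lower of 30 under saline (median -0.45), beside 12.5% and 12.4% of all genes. After DCZ 2 were higher and 0 lower (median 0.15), and the 6.67% higher was near the 6.75% of all genes. The higher members were Gbp2, a guanylate-binding protein (0.59), and Usp18, a protease that removes ISG15 (1.15), which lost their calls in 15 of 24 and 5 of 24 fits that left out 1 library. In the fit without the muscle-containing libraries, 0 were called higher and 0 lower of 31. Among secreted factors of adipose tissue 1 was higher and 3 lower of 16, and 1 was called lower without the muscle-containing libraries, as with GC and length offsets (1). The higher one was the retinol-binding protein Rbp4 (0.63, adjusted p = 0.00968, not past the threshold without the muscle-containing libraries). Vegfa, the growth factor that maintains the dense capillaries of brown fat, was lower, at 463 to 548 CPM (median 499) and 318 to 451 CPM (median 379.7) without overlap (log2 fold change -0.39 ± 0.08 SE, adjusted p = 0.00427).

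**Figure D5:**
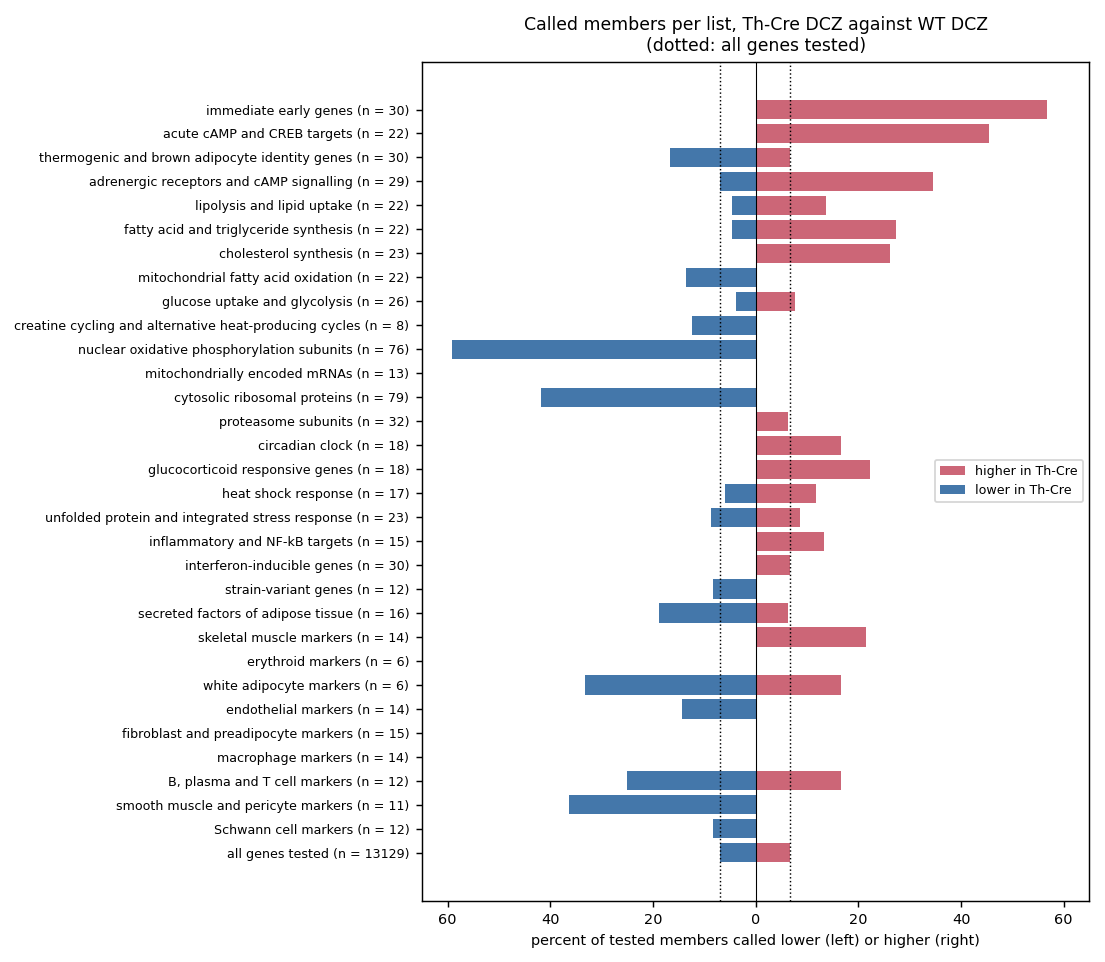
Percent of the tested members of each gene list that were called higher (right, red) or lower (left, blue) in Th-Cre than in WT mice after DCZ, for lists with 6 or more tested members. The dotted lines mark 6.75% and 7.02%, the shares over all genes; immediate early genes reach 17 of 30 on the right and oxidative phosphorylation subunits 45 of 76 on the left.

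Markers of other cell types moved as follows. Skeletal muscle markers summed to 60.5 to 99.9 CPM in WT and 50.6 to 712 in Th-Cre libraries, with the top in DN2075. Myh4, a fast myosin, was at 160.2 CPM in DN2075 and at 0.832 at the Th-Cre median, and its call, like those of Actn3 and Pvalb, was lost without DN2075 (adjusted p = 0.109, 0.179 and 0.131). Of 11 smooth muscle and pericyte markers 4 were lower (median -0.27; summed 647 to 764 CPM in WT and 614 to 665 in Th-Cre), among them Kcnj8, a potassium channel of pericytes (-0.56, adjusted p = 0.00193). Of 14 endothelial markers 2 were lower (median -0.2), among them the VEGF receptor Kdr (-0.48, lost without WT5, adjusted p = 0.0512). When the muscle-containing libraries were left out, 1 of the smooth muscle and pericyte markers, Kcnj8, and 0 of the endothelial markers were called lower. Of 6 white adipocyte markers tested, 2 were called lower, Nnat and Dlk1, while 4 had a positive log2 fold change (list median 0.2). The 1 called higher was Nrip1, a nuclear receptor corepressor (0.56, adjusted p = 0.011, call lost without the muscle-containing libraries). No fibroblast, macrophage, neutrophil, mast cell or erythroid marker was called, apart from 1 macrophage marker that was higher without the muscle-containing libraries. The 3 tested neutrophil markers all had a positive log2 fold change (median 0.56), while Ly6g and Camp of that list of 9 had no read in the 12 libraries. The summed level of the 9 ran from 1.37 to 4.55 CPM in WT and from 3.04 to 5.43 in Th-Cre libraries. The part of these cells in the other gene groups was not tested.

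Genes around Th were examined because the Th-Cre allele lies there. Of 26 tested genes within 1 Mb of Th 4 were called, beside 13.8% of all genes, and of 101 within 10 Mb 16 were (15.8%). The 4 were the imprinted cell cycle inhibitor Cdkn1c (-0.46), Tssc4 (-0.45, adjusted p = 0.0111), a splicing cofactor, and the tetraspanin Cd81 (-0.2), all lower, and the sterol reductase Dhcr7 (0.37), which was higher. Tssc4 was called in every fit that left out 1 library, at 9.62 to 13.9 CPM (median 11.7) in WT and 6.86 to 10.1 CPM (median 8.58) in Th-Cre libraries, whereas the calls on Cdkn1c, Cd81 and Dhcr7 were lost in 5 of 24, 6 of 24 and 6 of 24 such fits and without the muscle-containing libraries. Those on Cdkn1c and Cd81 did not pass with GC and length offsets either. By chromosome, 10.9 to 17.8% of genes were called on those with 300 or more tested genes.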

How the data were processed

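RNA of interscapular brown adipose tissue was processed with kallisto 0.44.0 against GRCm38.p6, per the submitters' processing notes; neither the transcript set nor the use of strand is given in the sources used here. The authors deposited estimated counts per gene symbol, which hold whole numbers and were used as deposited. They also deposited the counts of reads and the percent of reads that pseudoaligned in each library. Of 36144 genes, 13364 had no read and 13129 passed filterByExpr. Libraries were scaled by TMM, and edgeR 4.0.16 (R 4.3.3) fitted group means and sex over all 24 libraries by quasi-likelihood, with Benjamini-Hochberg adjustment over all 13129 genes. CPM are on TMM-scaled sizes, and SE is the log2 fold change over the square root of F. Libraries with a muscle score above 1 were treated as muscle-containing. P-values of the fits set a difference between groups against the spread between mice within groups, estimated over all 24 libraries. They cannot separate genotype from library series. DESeq2 1.42.0 and limma 3.58.1 (voom, prior count of 2 for scores) were alternatives, as were other scalings, filters, single sexes and leaving out each library. The fits were tested on simulated data. Symbols and positions come from GENCODE M21.

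Named genes were the 10 largest differences in each direction at a mean log2 CPM of at least 1, the 5 smallest p-values, up to 4 called members (or 2 uncalled) of each of 35 lists, genes passing the test of the difference, and genes within 1 Mb of Th; others are marked in the text. Some genes that this rule picked are not reported here. Members and lists were chosen with earlier results of these data known.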

Additional observations from a re-analysis of the deposited data

Results flagged for a closer look

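In 190 sets of 6 values (90 genes and 5 library measures in each group) chance alone would give about 1 flag in 20, and 20 were found. Of these, 9 belonged to WT3, which stood below the other 5 WT DCZ mice for Dhcr7 (11.5 CPM) and Decr1 (631) and above them for Fos (85.1 CPM), Junb (71.9), Irs2 (68.8), Tnc (9.11), Igha (3.33), Igkc (9.83) and Jchain (2.44). Muscle transcripts of DN2075 stood above those of the other Th-Cre DCZ mice, with Myh4 at 160 CPM, Actn3 at 22.4 and Pvalb at 19.5. WT1 stood highest in its group for Myh4 (0.957 CPM), Actn3 (0.169) and the mean log2 level of the muscle markers (0.543). Single mice stood apart for Nnat in DN2091 (4.55 CPM), Atp5o and Etfb in WT5 (646 and 1109), Chrm3 in WT4 (0.108) and Cry2 in WT6 (31.4, the lowest of its group). The genotype difference of Arl4d was larger after DCZ than under saline by 1.53 on the log2 scale in the direct test of that difference.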

How the results depend on the processing

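The 1808 genes called after DCZ became 1081 with only the 12 libraries of the contrast, 735 in males, 30 in females, 535 without the muscle-containing libraries and 107 when a 1.2-fold change was required. Genes at least 2-fold apart (158) became 20 in females, 96 without the muscle-containing libraries and 61 with the 1.2-fold requirement. The saline calls (3270) became 658, 6, 109 and 151 in males, in females, without muscle and with that requirement. Shared calls (1075) became 149, 4, 38 and 28 in the same order, and 642 with 12 libraries a contrast. The single gene of the direct test became 16 with DESeq2, 8 without a filter, 2 with GC and length offsets or no term for sex, 4 without muscle, and 0 in either sex. Leaving out 1 library gave 850 to 2443 calls after DCZ, 105 to 210 at 2-fold, 498 to 1517 shared and 1 to 7 in the direct test. The difference in pseudoaligned reads ran from -0.72 to 0.0533 percentage points, above 0 without WT1, and Cidea turned to 0.0557 with the offsets. RLE, upper-quartile scaling, voom and other filters left the DCZ count within 1.5 times. Depth limits genes such as Chrm3 in WT tissue. No paired analysis was possible because the mouse numbers of the 2 genotypes share no value.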
